A study of Mus musculus with 12 samples.

Results

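The genes described here are 33 genes of the unfolded protein response and the integrated stress response, measured in pancreatic islets of mice by RNA sequencing. They were found by gene symbol among the 24421 genes of the deposited count table, and all 33 were present and passed the filter on low counts that left 17411 genes for testing. By role they are 14 chaperones and folding enzymes of the endoplasmic reticulum (ER), 7 genes of ER-associated degradation, 5 sensors and transcription factors, 5 targets of the transcription factor ATF4 (Ddit3, Trib3, Chac1, Asns and Sesn2), and Ppp1r15a and Wfs1. Knockout mice were Bmal1fl/fl with RIPCreERT/+, a Cre-oestrogen receptor fusion under the rat insulin promoter, which limits recombination largely to beta cells. Control mice were Bmal1fl/fl without Cre, so every mouse carried the floxed clock gene, and an effect of Cre itself cannot be told apart from loss of Bmal1. Each genotype was sampled 24 h after citrate buffer (vehicle), 24 h after a submaximal dose of streptozotocin (STZ, a toxin that enters beta cells through a glucose transporter) and 4 wk after STZ. Each of the 6 groups had 2 libraries, A and B. No vehicle group was taken at 4 wk, so a difference between STZ 4 wk and vehicle holds the passage of time as well as STZ. Nothing in the labels ties A and B to separate animals, and p-values therefore measure library spread that could be technical.

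Proteins that enter the ER are folded there by chaperones such as BiP and by disulfide isomerases, and those that fail to fold are passed back to the cytosol for destruction by ER-associated degradation. When unfolded proteins build up, the sensors IRE1, ATF6 and PERK raise the production of chaperones and degradation factors, and PERK also slows translation and so raises ATF4, a transcription factor shared with other stresses as the integrated stress response. Beta cells and acinar cells both make large amounts of secreted protein and depend on this system, and a prolonged response is known to lead to cell death through CHOP, the product of Ddit3.

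These arms are known to act through short promoter elements, so the promoters of the members were searched before the values are given. RefSeq promoter windows of 300 bases, 250 before and 50 after the start site (GRCm38.p6), were matched for 29 of the 33 members. The ER stress response element, searched on both strands as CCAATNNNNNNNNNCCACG, was present in 9 of the 29, against 0.137% of 27025 genes with a window. It lay in 7 of 12 chaperone promoters (Hspa5, Hsp90b1 with 2 matches, Calr, Canx, Pdia6, Dnajc3 and Creld2), in 2 of 6 promoters of ER-associated degradation (Syvn1 and Derl3) and in 0 of 5 promoters of ATF4 targets. The second form of the element, ATTGGNCCACG, was present in Dnajb11 and Herpud1, against 0.0444% of all genes. The ATF4 composite element, searched as TGATGNAA, was present in Asns, Chac1 and Trib3, that is 3 of 5 ATF4 targets, and in Herpud1, against 4.51% of all genes. TGACGTGG, a binding sequence of XBP1 and ATF6, was in 0 of the 29 windows and in 0.714% of all genes. The E-box CACGTG, the sequence bound by BMAL1 with CLOCK, was in Calr, Derl3 and Dnajb9, that is 10.3% of members against 8.09% of all genes. No 2 of these matches overlapped in a member's promoter. A match is a description of letters in a window, not of a bound site. The members were chosen as genes of these responses, so their shares beside those of all genes are a description and not a test.

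The 250 bases before the start site are shown for 3 chaperones with the ER stress response element, for Herpud1, which holds both kinds of element, and for 2 ATF4 targets, because the expression of these sets is compared below. The capitals mark the matches to the ER stress response elements and to the ATF4 composite element. The windows are chr2:34771840-34772089 on the plus strand for Hspa5, chr10:86705445-86705694 on the minus strand for Hsp90b1 and chr12:17266339-17266588 on the plus strand for Pdia6. They are chr8:94386179-94386428 on the plus strand for Herpud1, chr6:7693210-7693459 on the minus strand for Asns and chr2:119350992-119351241 on the plus strand for Chac1. Each is written 5′ to 3′ on the strand of its gene. The start sites of the windows are not in every case those of the transcripts counted. The counted transcripts begin at 94386500 for Herpud1, 7693182 for Asns and 17266595 for Pdia6, downstream of the window's end and not at the next base.
Hspa5: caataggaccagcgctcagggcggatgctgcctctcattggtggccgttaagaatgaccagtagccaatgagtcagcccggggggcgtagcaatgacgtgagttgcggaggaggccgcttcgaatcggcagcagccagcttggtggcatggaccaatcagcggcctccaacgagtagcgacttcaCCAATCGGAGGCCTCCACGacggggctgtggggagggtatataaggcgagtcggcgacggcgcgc
Hsp90b1: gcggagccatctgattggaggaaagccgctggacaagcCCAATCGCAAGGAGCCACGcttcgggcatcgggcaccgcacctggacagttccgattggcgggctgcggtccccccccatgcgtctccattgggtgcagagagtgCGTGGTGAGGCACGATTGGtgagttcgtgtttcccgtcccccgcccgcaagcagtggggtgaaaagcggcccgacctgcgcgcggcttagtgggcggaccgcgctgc
Pdia6: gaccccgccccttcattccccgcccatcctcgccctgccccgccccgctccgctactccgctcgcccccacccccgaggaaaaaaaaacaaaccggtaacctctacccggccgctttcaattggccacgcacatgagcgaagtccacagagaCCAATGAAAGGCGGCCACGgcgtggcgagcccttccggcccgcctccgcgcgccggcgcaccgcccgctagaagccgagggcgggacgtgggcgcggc
Herpud1: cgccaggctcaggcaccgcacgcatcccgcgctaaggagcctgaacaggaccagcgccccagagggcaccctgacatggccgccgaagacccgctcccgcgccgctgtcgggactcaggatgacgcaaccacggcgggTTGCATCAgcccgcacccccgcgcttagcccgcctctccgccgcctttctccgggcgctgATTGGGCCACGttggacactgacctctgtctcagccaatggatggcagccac
Asns: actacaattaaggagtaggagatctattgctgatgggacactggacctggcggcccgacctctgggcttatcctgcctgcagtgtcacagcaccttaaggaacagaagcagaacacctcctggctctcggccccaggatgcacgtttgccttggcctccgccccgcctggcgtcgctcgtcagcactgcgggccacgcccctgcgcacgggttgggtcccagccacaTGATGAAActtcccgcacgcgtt
Chac1: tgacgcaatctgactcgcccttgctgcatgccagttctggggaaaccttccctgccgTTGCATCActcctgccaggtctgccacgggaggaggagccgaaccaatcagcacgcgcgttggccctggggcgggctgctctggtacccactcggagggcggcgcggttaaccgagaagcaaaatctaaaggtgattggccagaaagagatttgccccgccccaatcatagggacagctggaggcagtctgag

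**Figure D1:**
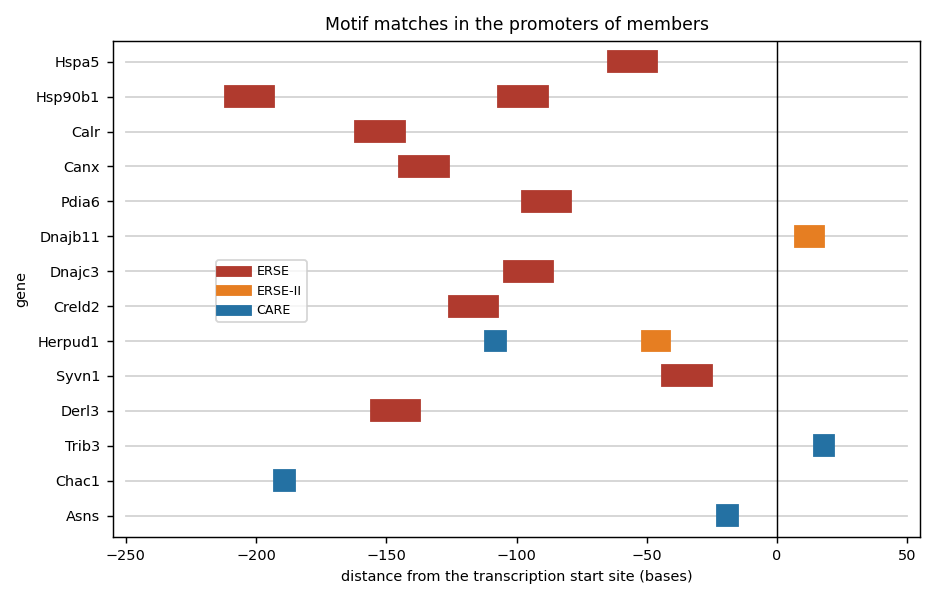
Matches to the ER stress response element (ERSE), its second form (ERSE-II) and the ATF4 composite element (CARE) in the 14 member promoters that hold any. Each grey line is a promoter window, the x axis gives the distance from the start site in bases, and the chaperones at the top hold ERSE or ERSE-II while the ATF4 targets at the bottom hold CARE.

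Total counts were 101772241 to 127207523 per library. Exon 8 of the targeted gene, Arntl, had a coverage of 0.627 to 1.37 times the transcript mean in the 6 knockout libraries and 1.56 to 1.99 in the 6 control libraries. The whole transcript, most of which lies outside that exon, had a normalized count (CPM, scaled to library totals) of 8.88 to 19.9 in knockout and 8.36 to 20.6 CPM in control. The labels call the cells predominantly beta cells, and transcripts of other cells were abundant. The 30 acinar genes, headed by Prss1 and Prss2, took 7.86 to 32.8% of counts, against 2.12 to 16.5% for 25 beta-cell genes, headed by Ins1 and Ins2. In A and B, the acinar share was 9.01 and 7.86% in knockout vehicle and 27.1 and 26.0% in control vehicle. At 24 h after STZ it was 31.2 and 32.8% in knockout and 18.3 and 18.8% in control. At 4 wk after STZ it was 16.5 and 19.8% in knockout and 14.1 and 15.8% in control. The 20 pan-endocrine genes, headed by Chga and Chgb, took 0.496 and 0.500% of counts in knockout STZ 24 h and 1.54 to 2.98% in the other 10 libraries. Islets were sequenced in bulk, so fewer cells of a type and less RNA per cell cannot be told apart. A fit with an acinar covariate is given among the processing alternatives. It rests on small gaps between A and B, and the part of these shares in the results on the 33 genes was not tested.

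Per length of transcript, the 4 genes of highest level were chaperones. In control vehicle libraries Hspa5, which encodes the chaperone BiP, was at 648 ± 59.0 TPM, a count scaled to transcript length and library total (SD, n = 2). It was followed by Hsp90b1, the ER form of HSP90, at 572 ± 72.9 TPM and by the disulfide isomerase Pdia3 at 481 ± 58.1 TPM. Calr, at 371 ± 38.3 TPM, Herpud1, at 261 ± 3.12 TPM, and Xbp1, at 242 ± 18.5 TPM, came next. The first 3 levels differed, each from the next, by less than the sum of their SDs, as did those of Herpud1 and Xbp1. ATF4 targets other than Asns stood at the bottom: Ddit3 was at 10.02 ± 0.432 TPM, Chac1 at 9.86 ± 1.78 TPM, Sesn2 at 7.58 ± 0.147 TPM and Trib3 at 1.54 ± 0.0826 TPM. Asns, asparagine synthetase, was at 167 ± 15.1 TPM.

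**Figure D2:**
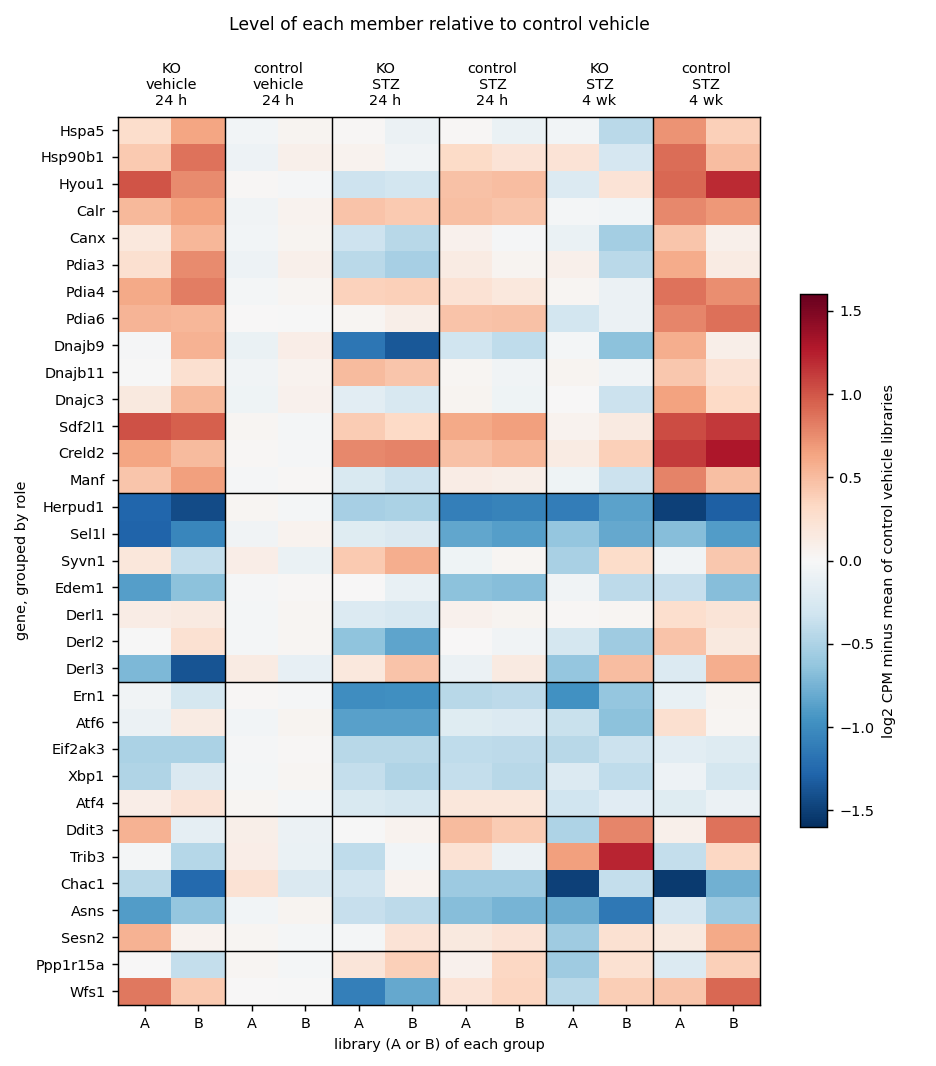
Level of each of the 33 genes in each of the 12 libraries, as log2 CPM minus the mean of the 2 control vehicle libraries, with genes grouped by role. The upper block of chaperones is high in knockout vehicle and in control STZ 4 wk. Herpud1, Sel1l and Edem1 are low in those groups and in control STZ 24 h, and Herpud1 and Sel1l also in knockout STZ 4 wk.

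Under vehicle the called genes among the 33 were split between higher and lower in knockout, and after STZ most of those called were lower in knockout. Under vehicle, 7 were higher in knockout and 5 lower, where 1.96% of all genes tested were higher and 7.68% lower. At 24 h after STZ, 4 were higher in knockout and 11 lower, against 23.7% and 19.4% of all genes. At 4 wk after STZ, 2 were higher in knockout and 15 lower, against 19.9% and 7.89% of all genes. As shares of the 33 genes these were 21.2% higher and 15.2% lower under vehicle, 12.1% and 33.3% at 24 h, and 6.06% and 45.5% at 4 wk, so the shares called higher after STZ lay below those of all genes. The median log2 fold change of the 33 genes, knockout over control, was 0.16 under vehicle, -0.21 at 24 h after STZ and -0.54 at 4 wk after STZ. The medians of all genes were 0.00, 0.00 and 0.01. Calls here and below are from the edgeR quasi-likelihood test at an adjusted p under 0.05 over all 17411 genes. Scaled to total counts instead, the split was 20 higher and 2 lower under vehicle, 1 and 15 at 24 h and 0 and 18 at 4 wk, with the median of all genes at 0.53, -0.24 and -0.08. The called numbers under vehicle were 2 higher and 3 lower without control vehicle A, 3 and 3 without control vehicle B and 4 and 3 without knockout vehicle A. At 24 h they were 2 higher without control B or without knockout A, and 6, 5, 4 and 6 lower without control A, control B, knockout A and knockout B. At 4 wk 0 were higher without control A or without knockout B.

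Chaperones were higher in knockout islets than in control islets under vehicle and lower 4 wk after STZ. Under vehicle 7 of the 14 were higher and 0 lower, with a median log2 fold change of 0.54, and at 4 wk after STZ 0 were higher and 11 lower, with a median of -0.78. At 24 h after STZ 1 was higher, 5 were lower and 8 did not pass, with a median of -0.27. All 6 groups shared 1 estimate of spread in these calls. The spread between A and B, as chi-square over its degrees of freedom, was 462 in knockout STZ 4 wk and 318 in control STZ 4 wk. In the other groups it was 24.5 to 266. Fitted on the compared libraries alone, 4 were higher under vehicle, 3 were higher and 9 lower at 24 h, and 4 were lower at 4 wk. The 14 genes together took 1.09 and 1.33% of counts in knockout vehicle against 0.550 and 0.605% in control vehicle. They took 0.572 and 0.544% in knockout STZ 24 h against 0.824 and 0.775% in control STZ 24 h. At 4 wk after STZ the share was 0.715 and 0.572% in knockout against 1.25 and 1.03% in control. The shares of the genotypes did not overlap in any of the 3 conditions.

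Sdf2l1, an ER protein that works with DnaJ co-chaperones (chromosome 16, 17130138 to 17132383, mm10), had the smallest adjusted p of the chaperones under vehicle. It had 69.5 and 66.3 CPM in knockout vehicle A and B against 35.1 and 33.4 CPM in control vehicle, and both knockout libraries lay far above both control libraries (log2 0.99, SE 0.09, adjusted p = 0.000191). At 4 wk after STZ it had 35.5 and 38.0 CPM in knockout against 70.7 and 75.01 CPM in control, the reverse order without overlap (log2 -0.99, SE 0.09, adjusted p = 7.68e-05). At 24 h it had 45.2 and 42.8 CPM in knockout against 52.1 and 53.9 CPM in control, a smaller difference (log2 -0.27, SE 0.09, adjusted p = 0.0448), whose call was lost without any 1 of these 4 libraries.

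Hyou1, the large chaperone that releases nucleotide from BiP (chromosome 9, 44379490 to 44392369), followed the same course. Its levels were 848 and 711 CPM in knockout vehicle against 426 and 416 CPM in control vehicle (log2 0.89, SE 0.16, adjusted p = 0.00835). They were 334 and 343 CPM in knockout against 582 and 593 CPM in control at 24 h after STZ (log2 -0.80, SE 0.16, adjusted p = 0.00392). At 4 wk they were 363 and 489 CPM in knockout against 795 and 965 CPM in control (log2 -1.05, SE 0.16, adjusted p = 0.00140). In none of the 3 conditions did the genotypes overlap. The call under vehicle was lost without control vehicle A, control vehicle B or knockout vehicle A.

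BiP itself passed the test at 4 wk. Hspa5 (chromosome 2, 34772090 to 34776529) had 1303 and 995 CPM in knockout STZ 4 wk against 2213 and 1753 CPM in control STZ 4 wk (log2 -0.79, SE 0.18, adjusted p = 0.0104), and the call was lost without control A. Under vehicle it had 1630.0 and 2076 CPM in knockout against 1301 and 1389 CPM in control, without overlap, and the difference did not pass (log2 0.46, SE 0.18, adjusted p = 0.179). At 24 h the genotypes overlapped, at 1360.0 and 1256 CPM in knockout and 1362 and 1253 CPM in control.

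The lectin chaperones and disulfide isomerases differed in how surely they moved. Calr, calreticulin, had 844 and 921 CPM in knockout vehicle against 566 and 615 CPM in control vehicle (log2 0.58, SE 0.09, adjusted p = 0.00455). Calreticulin transcripts stood at 4 wk at 580.2 and 575 CPM in knockout STZ 4 wk against 1002 and 958 CPM in control STZ 4 wk (log2 -0.76, SE 0.09, adjusted p = 0.000372). Both sets stood apart without overlap, and the call under vehicle was lost without control vehicle A. Pdia6, an isomerase that attenuates IRE1 signalling, had 478 and 476 CPM in knockout vehicle against 329.8 and 327 CPM in control vehicle (log2 0.54, SE 0.10, adjusted p = 0.00849), a call lost without control vehicle A or B. In the 4 wk libraries it had 268 and 308 CPM in knockout STZ 4 wk against 563 and 603 CPM in control STZ 4 wk (log2 -1.02, SE 0.10, adjusted p = 9.32e-05). Pdia4 had 218 and 252 CPM in knockout vehicle against 140.3 and 146 CPM in control vehicle (log2 0.71, SE 0.11, adjusted p = 0.00278). At the later time it had 146 and 135 CPM in knockout STZ 4 wk against 263 and 239 CPM in control STZ 4 wk (log2 -0.84, SE 0.11, adjusted p = 0.000436). Canx, the membrane-bound partner of calreticulin, fell at 4 wk by 0.58 on the log2 scale (SE 0.19, adjusted p = 0.0479), a call lost without control A or knockout B. Pdia3 did not pass in any condition, with log2 values of 0.52 under vehicle, -0.56 at 24 h and -0.53 at 4 wk.

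Manf and Creld2, small ER proteins induced by ER stress, were both higher in knockout vehicle and lower in knockout at 4 wk. Manf had 205 and 237 CPM in knockout vehicle against 149 and 153 CPM in control vehicle (log2 0.55, SE 0.14, adjusted p = 0.0448), a call lost without any 1 of these 4 libraries. At 4 wk it had 144 and 119 CPM in knockout STZ 4 wk against 263 and 211 CPM in control STZ 4 wk (log2 -0.85, SE 0.14, adjusted p = 0.00221). Creld2 had 62.6 and 57.4 CPM in knockout vehicle against 41.0 and 40.1 CPM in control vehicle (log2 0.57, SE 0.12, adjusted p = 0.0149), lost without control A, control B or knockout A. Its 4 wk levels were 44.2 and 52.9 CPM in knockout STZ 4 wk against 88.4 and 99.7 CPM in control STZ 4 wk (log2 -0.95, SE 0.12, adjusted p = 0.000347). Of the co-chaperones that bring clients to BiP, Dnajc3 fell at 4 wk (log2 -0.65, SE 0.17, adjusted p = 0.0227), lost without control A or knockout B. Dnajb9 fell at 24 h (log2 -0.90, SE 0.26, adjusted p = 0.0221) and Dnajb11 rose at 24 h (log2 0.49, SE 0.12, adjusted p = 0.0106). The Dnajb9 call was lost without any 1 of the 4 libraries compared, and the Dnajb11 call without control B or knockout A. Hsp90b1 fell at 4 wk (log2 -0.71, SE 0.21, adjusted p = 0.0372), again lost without control A or knockout B. The number of chaperones called higher under vehicle was 2, 3 and 4 without control A, control B and knockout A. The number called lower at 24 h was 1, 1, 1 and 2 without control A, control B, knockout A and knockout B. The number called lower at 4 wk was 7 without control A.

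**Figure D3:**
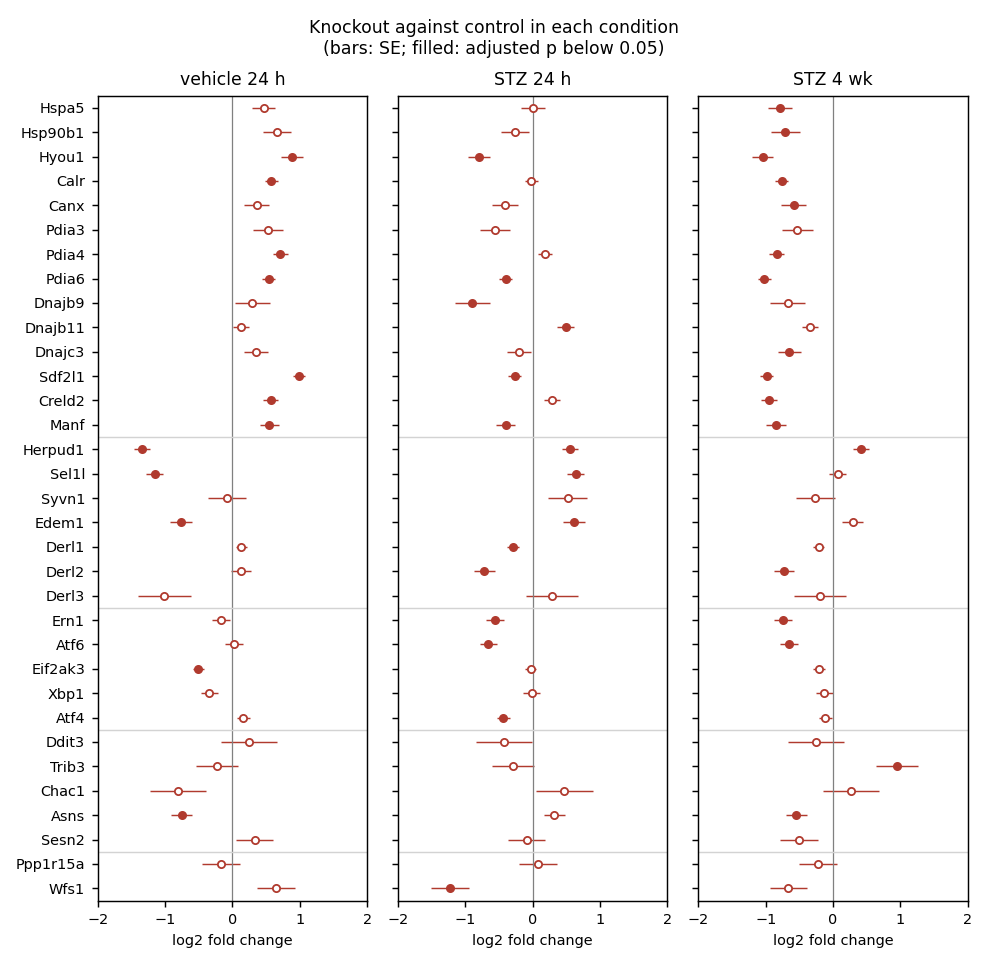
Log2 fold change of each of the 33 genes, knockout over control, under vehicle 24 h, STZ 24 h and STZ 4 wk. Bars are SE and filled points passed an adjusted p of 0.05; the filled chaperones at the top lie right of 0 under vehicle and left of 0 at 4 wk, and Herpud1 lies on the opposite side in both.

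Marker lists moved in the same comparisons. The median log2 fold change of the 30 acinar genes, knockout over control, was -2.14 under vehicle, 0.99 in STZ 24 h and 0.36 in STZ 4 wk islets, with 28 lower, 21 higher and 9 higher, and 0 called the other way in each. That of the 20 pan-endocrine genes was 0.38, -1.67 and -0.62, with 2 higher, 20 lower and 13 lower. That of 25 beta-cell genes was 0.28, -2.001 and -1.001, with 2 higher, 23 lower and 17 lower. The 16 macrophage genes, headed by Lyz2 and Cd68, had medians of -0.38, 2.96 and 1.78, with 2 lower, 16 higher and 15 higher. The 11 hepatocyte genes, among them Alb and Apoa1, had medians of -3.69, 1.79 and 1.26, with 9 lower, 10 higher and 7 higher. Of the 10 lymphoid genes, 6 were lower under vehicle and 10 higher at both times after STZ. They took 0.0433 and 0.0430% of counts in knockout STZ 24 h against 0.00126 and 0.00105% in control STZ 24 h, and Cd3d had 0 counts in 6 libraries. Duct genes, 11 in all, numbered 5 lower, 6 higher with 1 lower, and 7 higher, and the 9 stellate and fibroblast genes 3 lower, 5 higher with 1 lower, and 6 higher. These counts stand beside 1.96% of all genes higher and 7.68% lower under vehicle. The shares of all genes were 23.7% and 19.4% at 24 h, and 19.9% and 7.89% at 4 wk. A fit with the mean log2 CPM of the acinar genes as a covariate turned the chaperone calls to 4 higher and 8 lower under vehicle and 9 higher and 4 lower at 24 h, and left 0 higher and 11 lower at 4 wk. Of all 17411 genes, that fit called 4481 higher and 5289 lower under vehicle, beside 342 and 1337 without the covariate. It called 5433 and 4726 at 24 h and 5624 and 4445 at 4 wk. The ATF4 target median moved from -0.23 to 4.43 under vehicle. The covariate differed between A and B of a group by 0.0653 to 0.371, so its coefficient rests on those small gaps. The turned calls therefore do not measure the part of acinar cells. The part of the other lists in the chaperone differences was not tested.

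The response to STZ asks whether the injury raises or lowers these genes and whether it does so alike in both genotypes. In knockout islets at 24 h after STZ, 5 of the 33 genes were higher and 17 lower than after vehicle, against 30.1% and 26.2% of all genes. In control islets at 24 h, 4 were higher and 5 lower, against 5.41% and 2.15% of all genes. In knockout islets at 4 wk, 4 were higher and 15 lower than after vehicle, against 24.1% and 11.7% of all genes. In control islets at 4 wk, 7 were higher and 2 lower, against 4.98% and 4.01%. The interaction, that is the STZ effect in knockout minus that in control, was called positive for 5 genes and negative for 15 at 24 h, against 21.1% and 16.6% of all genes. At 4 wk it was called positive for 3 and negative for 15, against 18.7% and 7.35%. The 5 and 3 positive ones are 15.2% and 9.09% of the 33 genes, below the shares of all genes, and the 15 negative ones are 45.5%. Scaled to total counts, the split was 2 higher and 21 lower in knockout and 8 and 2 in control at 24 h, and 1 and 21 in knockout and 17 and 1 in control at 4 wk. It was 2 and 20 in the difference at 24 h and 2 and 21 at 4 wk. The median of all genes under that scaling was -0.47 in knockout and 0.33 in control at 24 h. It was -0.22 and 0.41 at 4 wk, and -0.79 and -0.62 in the differences at 24 h and 4 wk. Of all 17411 genes, 7563 were then lower in knockout at 24 h and 3852 higher in control at 4 wk. In control at 24 h 1 was higher and 2 lower without any 1 of the 4 libraries. In knockout, 3 were higher at 24 h without STZ B, and at 4 wk 2 were higher without vehicle A, vehicle B or STZ 4 wk B and 7 lower without vehicle B. Negative differences numbered 7, 9, 8, 8, 8 and 7 at 24 h without control vehicle A, knockout vehicle B, control STZ A, control STZ B, knockout STZ A and knockout STZ B, and 9 at 4 wk without control vehicle A.

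Among the chaperones, 11 of 14 were lower and 1 higher than after vehicle in knockout islets at 24 h, and 11 lower and 0 higher at 4 wk. In control islets 4 were higher at 24 h and 7 at 4 wk, and 0 were lower at either time. Of all genes, 26.2% and 11.7% were lower in knockout at 24 h and 4 wk, and 5.41% and 4.98% higher in control. The medians were -0.59 in knockout and 0.15 in control at 24 h, and -0.67 in knockout and 0.68 in control at 4 wk. Fitted on the compared libraries alone, 9 were lower and 1 higher in knockout at 24 h, and 1 was lower at 4 wk. In control 7 were then higher and 1 lower at 24 h, and 6 higher at 4 wk. The difference was called negative for 10 chaperones at 24 h, with a median of -0.85, and for 12 at 4 wk, with a median of -1.36. The falls in knockout, these differences and the higher level under vehicle all use the same knockout vehicle libraries and are not separate results. The chaperone mean log2 CPM was 8.75 in knockout vehicle, 8.18 in knockout STZ 24 h and 8.12 in knockout STZ 4 wk. In control it was 8.22 after vehicle, 8.42 at STZ 24 h and 8.89 at STZ 4 wk. The median STZ effect on pan-endocrine genes was -2.08 in knockout and 0.06 in control at 24 h, and -0.77 in knockout and 0.29 in control at 4 wk. That on acinar genes was 2.39 in knockout and -0.84 in control at 24 h, and 1.31 in knockout and -1.19 in control at 4 wk. With the acinar covariate the chaperone interactions turned to 9 positive and 4 negative at 24 h and 7 positive and 5 negative at 4 wk. Of all genes, that fit called 5351 positive and 4522 negative at 24 h, and 5601 and 4392 at 4 wk. The part of pan-endocrine genes was not tested.

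Hyou1 fell in knockout by 1.205 on the log2 scale at 24 h (SE 0.16, adjusted p = 0.000255), against a difference of 0.48 in control that did not pass, and the interaction was -1.69 (SE 0.23, adjusted p = 0.000490). Sdf2l1 fell in knockout at 24 h (log2 -0.63, SE 0.09, adjusted p = 0.000436) and rose in control (log2 0.63, SE 0.09, adjusted p = 0.00290), so the groups moved in opposite ways (interaction log2 -1.25, SE 0.13, adjusted p = 0.000103). At 4 wk it again fell in knockout (log2 -0.89, SE 0.09, adjusted p = 8.97e-05) and rose in control (log2 1.09, SE 0.09, adjusted p = 0.000113), with an interaction of -1.97 (SE 0.13, adjusted p = 1.01e-05). Creld2 did not pass in knockout at 4 wk (log2 -0.31, SE 0.12, adjusted p = 0.0706). The rise of Creld2 in control was the largest among the 33 genes in that comparison (log2 1.21, SE 0.12, adjusted p = 0.000218). Hspa5 fell in knockout at both times, by 0.50 at 24 h and 0.69 at 4 wk, without passing in control at either. Its interaction passed at 4 wk (log2 -1.25, SE 0.25, adjusted p = 0.00600) and not at 24 h (log2 -0.46, SE 0.25, adjusted p = 0.186). The 24 h call of Hspa5 in knockout was lost without vehicle B, STZ A or STZ B, and the 4 wk call without vehicle B or STZ 4 wk B. Dnajb9, which keeps IRE1 inactive, had the largest fall of a chaperone in knockout at 24 h (log2 -1.56, SE 0.26, adjusted p = 0.00103): it had 138 and 119.9 CPM after STZ against 304 and 454 CPM after vehicle. Chaperones called lower in knockout numbered 6, 7 and 6 at 24 h without vehicle B, STZ A and STZ B, and 6 and 7 at 4 wk without vehicle B and STZ 4 wk B. Those called higher in control at 24 h numbered 1 without any 1 of the 4 libraries. Negative interactions of chaperones at 24 h numbered 5 without control vehicle A, control vehicle B, control STZ A, control STZ B, knockout vehicle B, knockout STZ A or knockout STZ B, and 10 without knockout vehicle A.

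**Figure D4:**
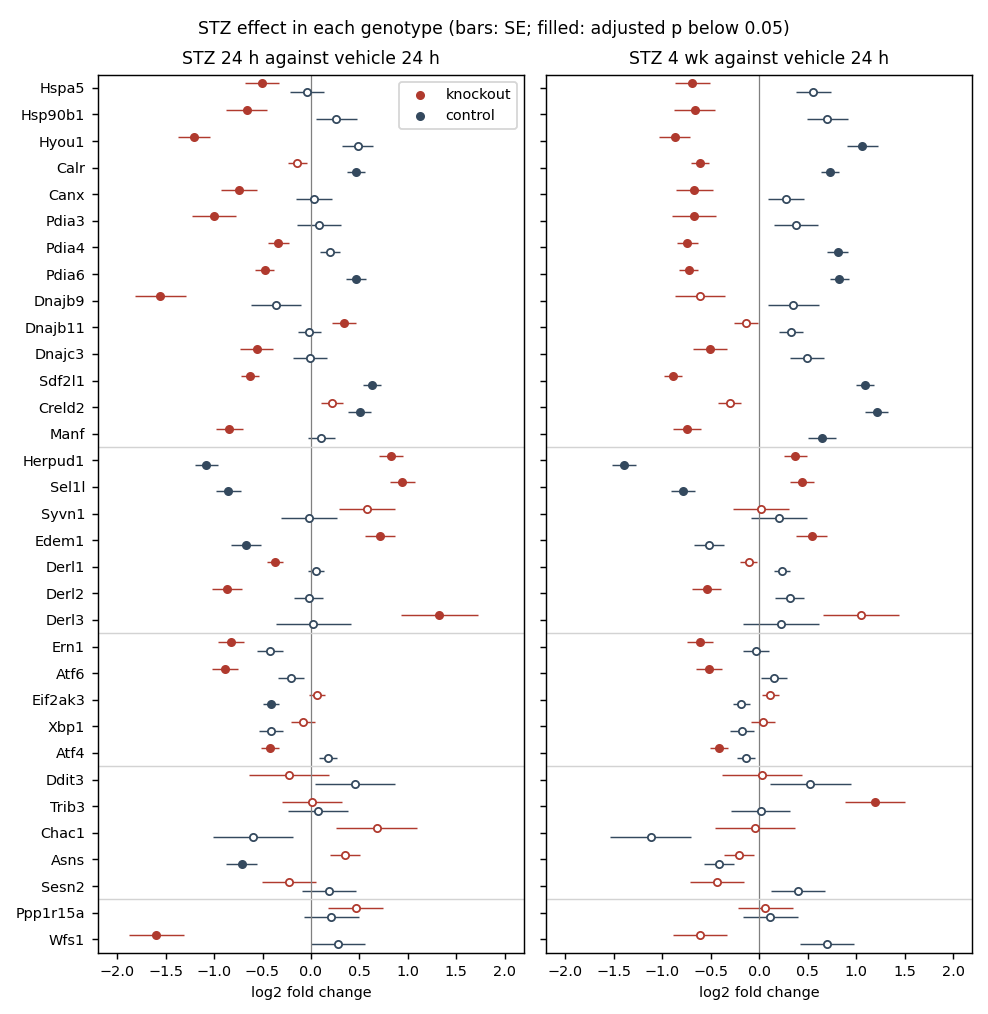
Log2 fold change of each of the 33 genes after STZ at 24 h and 4 wk relative to vehicle 24 h, for knockout (red) and control (dark) islets. Bars are SE and filled points passed an adjusted p of 0.05; most chaperones lie left of 0 in knockout and right of 0 in control at 4 wk, and Herpud1, Sel1l and Edem1 lie the other way round.

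The genes of ER-associated degradation did not form 1 group. Herpud1, Sel1l and Edem1 were lower in knockout under vehicle and higher in knockout at 24 h after STZ, Derl1 and Derl2 were lower in knockout at 24 h, and Syvn1 did not pass in any of the 9 comparisons. The list numbered 0 higher and 3 lower under vehicle, 3 and 2 at 24 h, and 1 and 1 at 4 wk, knockout against control. As shares of the 7 genes, the lower ones under vehicle were 42.9% beside 7.68% of all genes, and the higher and lower ones at 24 h were 42.9% and 28.6% beside 23.7% and 19.4%. At 4 wk 14.3% each way stood beside 19.9% and 7.89%.

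Herpud1, an ER membrane protein that assembles the degradation complex around the ligase HRD1 (chromosome 8, 94386500 to 94395358), had 167 and 149 CPM in knockout vehicle against 411 and 392 CPM in control vehicle. Both knockout libraries lay far below both control libraries (log2 -1.35, SE 0.12, adjusted p = 0.000133). After STZ the order was reversed. It had 277 and 282 CPM in knockout against 189 and 191 CPM in control at 24 h (log2 0.56, SE 0.12, adjusted p = 0.00488). Its levels at 4 wk were 186 and 221 CPM in knockout against 142 and 163 CPM in control (log2 0.42, SE 0.12, adjusted p = 0.0289), a call lost without control A or knockout B. STZ raised it in knockout at 24 h (log2 0.83, SE 0.12, adjusted p = 0.000361) and lowered it in control (log2 -1.08, SE 0.12, adjusted p = 0.000462). The interaction was positive at 24 h (log2 1.91, SE 0.17, adjusted p = 3.87e-05) and at 4 wk (log2 1.77, SE 0.17, adjusted p = 8.06e-05).

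Sel1l, the adaptor of HRD1, had 284 and 336 CPM in knockout vehicle against 666 and 718 CPM in control vehicle (log2 -1.16, SE 0.13, adjusted p = 0.000494). It had 603 and 589 CPM in knockout against 389 and 377 CPM in control at 24 h after STZ (log2 0.64, SE 0.13, adjusted p = 0.00343). At 4 wk the genotypes overlapped, at 451 and 391 CPM in knockout and 431 and 371 CPM in control. Edem1, which trims the sugars of misfolded glycoproteins, had 155 and 181 CPM in knockout vehicle against 283 and 288 CPM in control vehicle (log2 -0.76, SE 0.16, adjusted p = 0.0152). It had 287 and 262 CPM in knockout against 182 and 178 CPM in control at 24 h (log2 0.61, SE 0.16, adjusted p = 0.0125). Both Edem1 calls were lost without control A, control B or knockout A of their condition. The STZ effect differed between genotypes for both genes, with interactions at 24 h of 1.80 for Sel1l (SE 0.18, adjusted p = 8.09e-05) and 1.38 for Edem1 (SE 0.22, adjusted p = 0.00126). The acinar shares of counts given above were low in knockout vehicle and high in control vehicle and knockout STZ 24 h, as the levels of these 3 genes were. With the acinar covariate Sel1l and Edem1 kept their direction, at log2 -2.70 and -2.84 under vehicle and 1.47 and 1.73 at 24 h. Herpud1 did not pass under that fit, at 0.05 under vehicle and -0.20 at 24 h. The coefficient of that fit rests on the small gaps between A and B given above. Neither the kept nor the lost calls therefore separate these 3 genes from the acinar share. The acinar share moved with the groups, and the levels of these genes within and outside acinar cells cannot be told apart.

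Derl2, a channel component for export from the ER, had 55.5 and 48.5 CPM in knockout against 87.6 and 83.5 CPM in control at 24 h after STZ (log2 -0.72, SE 0.15, adjusted p = 0.00467). The 4 wk levels of Derl2 were 71.6 and 58.8 CPM in knockout against 119 and 97.0 CPM in control (log2 -0.73, SE 0.15, adjusted p = 0.00662). Neither set overlapped, and under vehicle the log2 value of 0.12 did not pass. Derl1, its relative, fell at 24 h (log2 -0.29, SE 0.08, adjusted p = 0.0210), a call lost without any 1 of the 4 libraries. Derl3, another relative, rose after STZ in knockout at 24 h, to 24.6 and 29.9 CPM against 13.3 and 8.40 CPM after vehicle (log2 1.33, SE 0.40, adjusted p = 0.0192), a call lost without vehicle B or STZ B. Its A and B stood far apart in knockout STZ 4 wk, at 14.2 and 30.8 CPM. Syvn1, which encodes HRD1, had 49.2 and 33.3 CPM in knockout vehicle and 46.9 and 40.3 CPM in control vehicle, which overlapped.

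Of the 3 sensors, Ern1 and Atf6 were lower in knockout after STZ. Ern1, the gene of IRE1, had 64.4 and 65.1 CPM in knockout against 94.6 and 96.4 CPM in control at 24 h (log2 -0.56, SE 0.13, adjusted p = 0.00895). At 4 wk it had 65.8 and 83.8 CPM in knockout against 119 and 133 CPM in control (log2 -0.75, SE 0.13, adjusted p = 0.00316). The 24 h call was lost without control B, knockout A or knockout B. Atf6 had 112 and 112 CPM in knockout against 178 and 175 CPM in control at 24 h (log2 -0.66, SE 0.13, adjusted p = 0.00384). The 4 wk levels of Atf6 were 159 and 129.8 CPM in knockout against 245 and 209 CPM in control (log2 -0.65, SE 0.13, adjusted p = 0.00627). Under vehicle neither passed, with log2 values of -0.17 for Ern1 and 0.02 for Atf6. Eif2ak3, the gene of PERK, was the sensor that differed under vehicle, at 66.9 and 67.0 CPM in knockout against 93.9 and 96.1 CPM in control (log2 -0.50, SE 0.09, adjusted p = 0.00561). Scaled to total counts its log2 value was 0.03, so the direction depended on the scaling.

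Of the transcription factors, Atf4 fell in knockout at 24 h after STZ, at 152 and 149 CPM in knockout against 205 and 204 CPM in control (log2 -0.44, SE 0.10, adjusted p = 0.00553). Atf4 did not pass under vehicle (log2 0.16, SE 0.10, adjusted p = 0.444) or at 4 wk (log2 -0.12, SE 0.10, adjusted p = 0.431). ATF4 is controlled mainly through translation, which was not measured. Xbp1 passed in none of the 9 comparisons, with 319.9 and 381 CPM in knockout vehicle against 436 and 456 CPM in control vehicle (log2 -0.35, SE 0.12, adjusted p = 0.145). Its message is spliced by IRE1, which removes 26 bases (chromosome 11, 5520641 to 5525993 for the gene, with the 26 bases at 5524282 to 5524307, mm10). The deposited table lists the spliced transcript at 0 in all 12 libraries and assigns every count to the unspliced one. An exact 0 can be a failed estimate between near-identical transcripts, so the splicing of Xbp1 is not read from these files.

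The ATF4 targets are 5 genes, so 1 call is 20% of them. Of the 5, 0 rose and 1 fell under vehicle, 0 and 0 changed at 24 h and 1 rose and 1 fell at 4 wk after STZ, knockout against control, where 7, 6 and 11 of the 14 chaperones changed. The medians of the ATF4 targets were -0.23, -0.09 and -0.25, beside 0.54, -0.27 and -0.78 for the chaperones. After STZ relative to vehicle, 0 and 1 of the 5 changed in knockout at 24 h and 4 wk, and 1 and 0 in control, where 12 and 11 chaperones changed in knockout and 4 and 7 in control. Of all genes, 30.1% were higher and 26.2% lower in knockout at 24 h, and 24.1% and 11.7% at 4 wk. In control these shares were 5.41% and 2.15% at 24 h and 4.98% and 4.01% at 4 wk. The 1 lower call under vehicle stood beside 7.68% of all genes lower, and the 0 calls at 24 h beside 23.7% higher and 19.4% lower. The 1 call each way at 4 wk stood beside 19.9% higher and 7.89% lower. At these numbers the list cannot be set apart from all genes. Of the chaperones, 50% were higher under vehicle and 78.6% lower at 4 wk, beside 1.96% and 7.89% of all genes. Whether the 2 lists differ was not tested. Scaled to total counts the ATF4 medians under vehicle, at 24 h and at 4 wk were 0.31, -0.34 and -0.35. Those of the chaperones were 1.08, -0.52 and -0.87, so the sign of the ATF4 median under vehicle depended on the scaling.

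**Figure D5:**
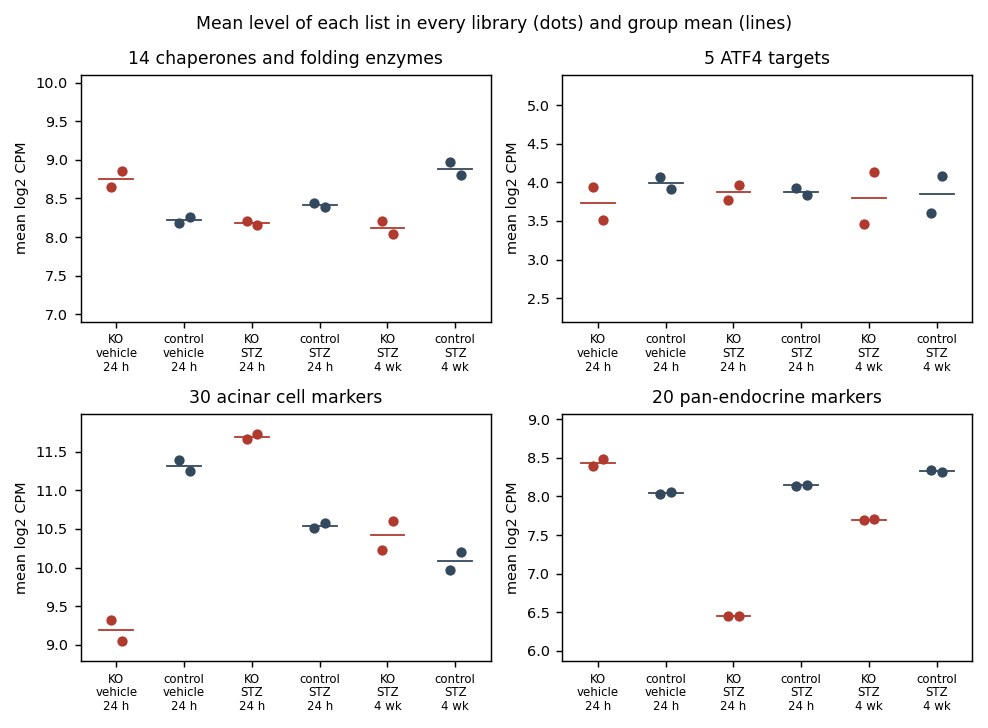
Mean log2 CPM of the 14 chaperones, the 5 ATF4 targets, 30 acinar and 20 pan-endocrine markers in each library (dots), with the group mean (line), for knockout (red) and control (dark) islets. Every panel spans the same number of log2 units; chaperones separate the genotypes in each condition, ATF4 targets overlap between genotypes in each, and the markers span wider ranges.

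Per library, the mean log2 CPM of the chaperones minus that of the ATF4 targets was 4.70 and 5.35 in knockout vehicle against 4.11 and 4.34 in control vehicle. It was 4.44 and 4.18 in knockout STZ 24 h against 4.52 and 4.56 in control STZ 24 h. For STZ 4 wk it was 4.75 and 3.90 in knockout against 5.37 and 4.71 in control. The genotypes did not overlap under vehicle and at 24 h, and overlapped at 4 wk. At 4 wk knockout nonetheless lay below control in A (4.75 against 5.37) and in B (3.90 against 4.71), though the labels give no pairing. Under vehicle and at 24 h, knockout A and B lay further apart than the nearest libraries of different genotypes. Differences of this kind within a library do not depend on the scaling of libraries, but they hold the spread between A and B. They also widen it, because the chaperone and ATF4 target means moved in opposite ways between A and B, except in control STZ 24 h. In knockout vehicle and knockout STZ 4 wk, log2 A minus B was -0.35 and 0.39 for Hspa5, and 0.71 and -1.27 for Ddit3. Hyou1, Pdia6, Sdf2l1, Creld2 and Asns ran against the rest of their lists in both groups. The part of this shared gap in the differences between genotypes was not tested.

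Asns was the ATF4 target with the highest level per length in control vehicle. It had 142 and 171 CPM in knockout vehicle against 255 and 272 CPM in control vehicle (log2 -0.75, SE 0.16, adjusted p = 0.0165), lost without control A, control B or knockout A. Its 4 wk levels were 152 and 119 CPM in knockout STZ 4 wk against 218 and 177 CPM in control STZ 4 wk (log2 -0.54, SE 0.16, adjusted p = 0.0305), lost without control A or knockout B. At 24 h it had 203 and 197 CPM in knockout against 164 and 157 CPM in control, apart but not past the threshold (log2 0.32, SE 0.16, adjusted p = 0.132). STZ lowered it in control at 24 h (log2 -0.72, SE 0.16, adjusted p = 0.0254), lost without any 1 of the 4 libraries. The interaction was positive (log2 1.07, SE 0.22, adjusted p = 0.00484). Trib3, a pseudokinase that feeds back on ATF4, rose in knockout at 4 wk, at 4.11 and 6.06 CPM in knockout against 1.99 and 3.27 CPM in control (log2 0.95, SE 0.31, adjusted p = 0.0490), a call lost without control A or knockout B. Its level in knockout at 4 wk was also above that of knockout vehicle, at 2.55 and 1.90 CPM (log2 1.19, SE 0.31, adjusted p = 0.0159), lost without vehicle B or STZ 4 wk B.

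Ddit3, Chac1 and Sesn2 passed in none of the 9 comparisons. Ddit3, the gene of CHOP, had 10.5 and 6.44 CPM in knockout vehicle and 7.57 and 6.69 CPM in control vehicle, and 7.11 and 7.41 CPM in knockout against 10.1 and 9.44 CPM in control at 24 h. At 4 wk it had 5.05 and 12.2 CPM in knockout and 7.54 and 13.0 CPM in control, a gap between A and B wider than that between genotypes. Chac1, which degrades glutathione, had 9.28 and 5.30 CPM in knockout vehicle against 14.8 and 10.7 CPM in control vehicle (log2 -0.81, SE 0.42, adjusted p = 0.360). It did not overlap there, and did at 4 wk, at 4.46 and 9.66 CPM in knockout and 4.35 and 7.37 CPM in control. Sesn2, which restrains mTORC1, had 24.4 and 17.1 CPM in knockout vehicle and 16.8 and 16.2 CPM in control vehicle (log2 0.33, SE 0.28, adjusted p = 0.647). In the comparisons of 2 groups the SE of the log2 fold change was 0.28 to 0.42 for these 3 genes and 0.09 to 0.26 for the chaperones.

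Ppp1r15a, the phosphatase subunit that reverses the block of translation by PERK, passed in none of the 9 comparisons. It had 26.1 and 29.5 CPM in knockout and 23.9 and 28.7 CPM in control at 24 h after STZ (log2 0.08, SE 0.28, adjusted p = 0.845). Wfs1, an ER membrane protein whose loss causes diabetes in Wolfram syndrome, had 22.2 and 26.9 CPM in knockout against 54.9 and 60.2 CPM in control at 24 h (log2 -1.23, SE 0.28, adjusted p = 0.00716), lost without knockout A. Under vehicle it had 84.8 and 63.4 CPM in knockout against 47.5 and 47.2 CPM in control, apart but not past the threshold (log2 0.65, SE 0.28, adjusted p = 0.240). STZ lowered it in knockout at 24 h (log2 -1.59, SE 0.28, adjusted p = 0.00130), while the value of 0.28 in control did not pass. The interaction was called at 24 h (log2 -1.87, SE 0.39, adjusted p = 0.00534) and at 4 wk (log2 -1.31, SE 0.39, adjusted p = 0.0381). Wfs1 is abundant in beta cells, and the beta-cell share of counts was 2.12 and 2.35% in knockout STZ 24 h against 13.1 and 13.8% in control STZ 24 h. Its part in the Wfs1 level was not tested.

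Other genes of ER folding, translocation and quality control, 51 in all, included 17 that fell in knockout at 24 h after STZ. Knockout against control, 3 were higher and 2 lower under vehicle, 4 and 17 at 24 h, and 3 and 10 at 4 wk after STZ, with medians of 0.20, -0.31 and -0.35. The higher and lower shares were 5.88% and 3.92% under vehicle, beside 1.96% and 7.68% of all genes. They were 7.84% and 33.3% at 24 h, beside 23.7% and 19.4%, and 5.88% and 19.6% at 4 wk, beside 19.9% and 7.89%. STZ at 24 h raised 5 and lowered 27 in knockout, beside 30.1% and 26.2% of all genes, and raised 1 and lowered 0 in control, beside 5.41% and 2.15%. At 4 wk after STZ 4 were higher and 14 lower than after vehicle in knockout, beside 24.1% and 11.7%. In control 4 were higher and 1 lower, beside 4.98% and 4.01%. Rpn1, a subunit of the oligosaccharyltransferase, was higher in knockout under vehicle (log2 0.75, SE 0.11, adjusted p = 0.00204) and lower at 4 wk (log2 -0.70, SE 0.11, adjusted p = 0.00118). Ero1lb, the beta-cell form of the oxidase that feeds disulfide isomerases, averaged 702 ± 34.0 CPM in knockout and 2318 ± 70.1 CPM in control at 24 h (SD, n = 2 each; log2 -1.72, SE 0.17, adjusted p = 8.33e-05). It is itself among the 25 beta-cell markers. Uggt1, the folding sensor of glycoproteins, was lower in knockout at 24 h (log2 -0.95, SE 0.13, adjusted p = 0.000337) and 4 wk (log2 -0.83, SE 0.13, adjusted p = 0.00117). Ppib, an ER prolyl isomerase, moved the other way, averaging 77.7 ± 9.39 CPM in knockout vehicle and 166 ± 8.10 CPM in control vehicle (log2 -1.09, SE 0.12, adjusted p = 0.000499). STZ raised it in knockout at 24 h (log2 1.48, SE 0.12, adjusted p = 1.14e-05). Ern2, a relative of IRE1 found in mucous epithelia, had 0 counts in both knockout vehicle libraries against 29 and 8 in control vehicle, at least 17.9-fold lower with 3 counts over the group as the floor. Against the same floor Ern2 was at least 148.7-fold higher in knockout STZ 4 wk than in knockout vehicle, at 116 and 289 counts.

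Other genes of the integrated stress and amino-acid response, 40 in all, were counted apart from the 5 ATF4 targets above. Knockout against control, 1 was higher and 12 lower under vehicle, 15 and 4 at 24 h, and 7 and 12 at 4 wk after STZ, with medians of -0.29, 0.29 and -0.17. The higher and lower shares were 2.5% and 30% under vehicle, beside 1.96% and 7.68% of all genes. They were 37.5% and 10% at 24 h, beside 23.7% and 19.4%, and 17.5% and 30% at 4 wk, beside 19.9% and 7.89%, so the shares higher under vehicle and at 4 wk stood near those of all genes. STZ at 24 h raised 18 and lowered 7 in knockout, beside 30.1% and 26.2% of all genes. It raised 1 and lowered 8 in control, beside 5.41% and 2.15%. The difference was positive and called for 20 and negative for 2, beside 21.1% and 16.6%. Cth, which makes cysteine from cystathionine, averaged 81.8 ± 2.75 CPM in knockout and 24.8 ± 2.14 CPM in control at 24 h (log2 1.72, SE 0.13, adjusted p = 1.93e-05). It averaged 3.70 ± 0.667 CPM in knockout vehicle and 10.1 ± 0.190 CPM in control vehicle (SD, n = 2 each). At 24 h Gpt2, a mitochondrial alanine aminotransferase, averaged 84.7 ± 1.35 CPM in knockout and 22.7 ± 1.03 CPM in control (log2 1.90, SE 0.09, adjusted p = 2.52e-06). Psat1, of serine synthesis, averaged 75.6 ± 2.26 CPM in knockout and 27.2 ± 0.579 CPM in control at that time (log2 1.48, SE 0.10, adjusted p = 7.54e-06). At 4 wk Cth was still higher in knockout (log2 2.18, SE 0.14, adjusted p = 7.40e-06) while Psat1 (log2 -1.02, SE 0.10, adjusted p = 7.23e-05) and Mthfd2 (log2 -0.95, SE 0.10, adjusted p = 0.000106), of mitochondrial folate metabolism, were lower. Ddit4, an inhibitor of mTORC1, was lower in knockout under vehicle (log2 -1.36, SE 0.09, adjusted p = 2.81e-05), as were Gpt2 (log2 -1.10, SE 0.09, adjusted p = 9.92e-05) and Nupr1, a stress-induced chromatin protein (log2 -1.98, SE 0.17, adjusted p = 0.000123). Several of these genes are enzymes that acinar and liver cells also express. The 11 hepatocyte genes took 1.53 and 1.49% of counts in knockout STZ 24 h against 0.588 and 0.591% in control STZ 24 h. Their share was 0.183 and 0.119% in knockout vehicle against 0.0985 and 0.0886% in control vehicle, where 9 of them were lower in knockout and Ttr, also a gene of alpha cells, was not called. The part of liver cells in the levels of these genes was not tested.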

How the data were processed

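Polyadenylated RNA of 12 islet libraries was sequenced as paired reads on a strand-specific kit, per the labels' protocols. The authors deposited estimated counts (expected counts) per gene and per transcript in whole numbers, made with StringTie 1.3.6 on a fixed RefSeq annotation of mm10 with the strand option, per the file headers. For the aligner, the sources used here give no name. All 421428 deposited transcript counts equal coverage times length over 75, rounded up. Total counts were 101772241 to 127207523, and counting error is small beside the spread between A and B.

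Tests used edgeR 4.0.16 (R 4.3.3): TMM, filterByExpr (17411 genes kept), 1 fit of the means of all 6 groups, robust quasi-likelihood F test, two-sided, and Benjamini-Hochberg adjustment within each of 9 comparisons at 0.05. SE was taken as the absolute log2 fold change divided by the square root of F. CPM uses TMM-scaled totals, and TPM was computed here from the deposited transcript counts and lengths, for levels between genes. The scripts were tested on simulated data. The members and lists were chosen with earlier results of these data known. Beside the 33 members, the 3 genes of smallest adjusted p among those called in each of 2 other lists were picked in each comparison, and a selection of them is named; 5 listed symbols are not analysed here. Other settings were DESeq2 1.42.0 size factors and Wald test, total-count scaling, no filter, a replicate block by letter, an acinar covariate, fits of the compared libraries alone, TPM, and leaving out each library. Exons of members overlapped those of other genes on the same strand by at most 4.7% (Hsp90b1).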

Additional observations from a re-analysis of the deposited data

Results flagged for a closer look

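The effect of STZ differed between knockout and control islets for the members below, by the edgeR quasi-likelihood test of the difference itself (interaction), with an adjusted p under 0.05 over all genes. Values are log2 differences of the STZ effect, knockout minus control, so a negative value means that STZ moved the gene lower in knockout than in control. At 24 h the negative differences were those of Wfs1 (-1.87), Hyou1 (-1.69), Sdf2l1 (-1.25), Dnajb9 (-1.19), Pdia3 (-1.09), Manf (-0.95), Pdia6 (-0.94), Hsp90b1 (-0.92), Derl2 (-0.84), Canx (-0.77), Atf6 (-0.68), Calr (-0.60), Atf4 (-0.60), Pdia4 (-0.53) and Derl1 (-0.42). The positive ones were those of Herpud1 (1.91), Sel1l (1.80), Edem1 (1.38), Asns (1.07) and Eif2ak3 (0.47).

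At 4 wk, where the vehicle libraries were still those of 24 h, the negative differences were those of Sdf2l1 (-1.97), Hyou1 (-1.94), Pdia6 (-1.56), Pdia4 (-1.55), Creld2 (-1.52), Manf (-1.40), Hsp90b1 (-1.37), Calr (-1.34), Wfs1 (-1.31), Hspa5 (-1.25), Pdia3 (-1.06), Dnajc3 (-0.998), Canx (-0.94), Derl2 (-0.85) and Atf6 (-0.67). The positive ones were those of Herpud1 (1.77), Sel1l (1.23) and Edem1 (1.06). The acinar and pan-endocrine shares of counts differed between the same groups, and an acinar covariate reversed some of these signs.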

How the results depend on the processing

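Under DESeq2 size factors, no filter and the DESeq2 Wald test, the called results of single members kept their direction in every case and lost the call in 14, 7 and 2 of them. Settings that moved a count of members by over 1.5 times follow, in the order knockout against control under vehicle, at STZ 24 h and at STZ 4 wk, then STZ over vehicle, then the interactions. Total-count scaling gave 20 higher and 2 lower, 1 higher, 0 higher, then 2 higher in knockout and 8 higher and 2 lower in control at 24 h, 1 higher in knockout and 17 higher and 1 lower in control at 4 wk, and 2 higher in the 24 h interaction. That scaling also moved the medians of all genes, as given above. It reversed Eif2ak3 under vehicle (0.030) and in the 24 h interaction (-0.31) and Dnajb11 in knockout at 24 h (-0.14). Fits of the compared libraries alone gave 4 higher, 10 higher, 0 higher and 4 lower, then 10 higher and 10 lower in control at 24 h, and 0 higher and 1 lower in knockout at 4 wk. The Wald test gave 7 higher in knockout against control at 24 h, 9 higher in knockout STZ 24 h over vehicle and 4 lower in control STZ 4 wk over vehicle. DESeq2 size factors, no filter and the letter as 1 term over all libraries each gave 1 higher at STZ 4 wk. The cause was not tested.

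With a replicate block that paired A with A and B with B within a condition (within a genotype for STZ over vehicle), the counts were 13 higher and 8 lower under vehicle, 9 higher at 24 h, 23 lower at 4 wk, 1 higher and 2 lower in control at 24 h, 0 higher and 9 lower in knockout at 4 wk, and 10 and 7 higher in the 24 h and 4 wk interactions. The gaps between A and B correlated across genes, which are not independent replicates, at 0.12, 0.05 and 0.48 between genotypes under vehicle, at 24 h and at 4 wk. The correlation was -0.39 between knockout STZ 4 wk and knockout vehicle. Whether A and B were shared between genotypes at 4 wk was not tested. The correlation at 24 h was near 0 and the labels give no pairing, so the fit without the block was kept in every comparison. That reason does not cover 4 wk, where the gaps of most members ran the same way in both genotypes. In knockout and control STZ 4 wk, log2 A minus B was 0.39 and 0.34 for Hspa5 and -1.27 and -0.79 for Ddit3. The 4 wk calls of that fit leave such a shared gap in the spread. With the block 12 of the 14 chaperones were higher under vehicle and 14 of 14, Pdia3 included, lower at 4 wk.

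The acinar covariate gave 13 higher and 14 lower, 13 higher, 25 lower, then 15 higher in knockout and 14 higher and 16 lower in control at 24 h, 13 higher in knockout and 14 higher and 15 lower in control at 4 wk, and 15 and 13 higher in the interactions. Its coefficient rests on gaps between A and B of 0.0653 to 0.371 in mean log2 CPM, over a range of 9.05 to 11.7. Under it 49 called results reversed. Under vehicle these were Pdia4 (-0.34), Manf (-1.25) and Herpud1 (0.051), and at 24 h Dnajb9 (1.25), Manf (0.57), Herpud1 (-0.20), Derl2 (0.33) and Atf6 (0.26). In knockout STZ 24 h over vehicle they were Hspa5 (2.45), Hsp90b1 (3.07), Canx (2.44), Pdia3 (2.97), Pdia4 (0.90), Dnajb9 (3.14), Dnajc3 (2.32), Manf (1.27), Herpud1 (-0.82), Derl2 (1.42), Derl3 (-5.86) and Atf6 (1.11), and in control STZ 4 wk over vehicle Manf (-0.40). In knockout STZ 4 wk over vehicle they were Hspa5 (0.75), Hsp90b1 (1.15), Canx (0.88), Pdia3 (1.26), Dnajc3 (0.90), Manf (0.28), Herpud1 (-0.44), Derl2 (0.58), Atf6 (0.45) and Trib3 (-0.97). In the 24 h interaction they were Hsp90b1 (3.96), Calr (0.25), Canx (3.39), Pdia3 (4.11), Pdia4 (1.08), Dnajb9 (4.94), Manf (1.82), Herpud1 (-0.25), Derl2 (2.15) and Atf6 (1.94), and at 4 wk Hspa5 (1.65), Hsp90b1 (2.29), Canx (2.18), Pdia3 (2.84), Dnajc3 (1.83), Manf (0.68), Derl2 (1.39) and Atf6 (1.29).

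Leaving out 1 library at a time gave 2 to 6 higher and 3 to 5 lower under vehicle, 2 to 4 and 4 to 6 at 24 h, and 0 to 2 and 10 to 17 at 4 wk. For STZ over vehicle it gave 3 to 4 and 12 to 17 in knockout and 1 higher and 2 lower each time in control at 24 h, and 2 to 3 and 7 to 16 in knockout and 6 to 7 and 2 each time in control at 4 wk. The interactions gave 4 to 5 and 7 to 15 at 24 h and 3 to 4 and 9 to 16 at 4 wk. A group of 1 library was assumed to vary like the others. From TPM, which is also scaled to totals, the chaperone median was 1.20 under vehicle, -0.47 at 24 h and -0.77 at 4 wk, and the ATF4 target median 0.41, -0.29 and -0.26.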
